A study of Mus musculus with 9 samples.

Results

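The transcripts described here encode 2 glucose transporters and 8 enzymes of glycolysis in regulatory T (Treg) cells, a suppressive class of T cell marked by the transcription factor Foxp3. The 10 members are the rows named Slc2a1, Slc2a3, Hk1, Hk2, Gpi1, Aldoa, Tpi1, Pgk1, Eno1 and Ldha among 34092 gene rows. All 10 had a row, and all 10 passed the filter on low counts that left 14424 genes for testing. CNS2KO has the genotype Foxp3deltaCNS2-gfp, which lacks CNS2, an intronic enhancer of Foxp3. WT has the genotype Foxp3gfp. Both genotypes thus share a green fluorescent reporter at Foxp3, and both were sorted from mice as resting cells. The sources used here give no age, sex, strain or number of animals per library. By the labels there are 3 CNS2KO and 6 WT samples. Of these, 2 CNS2KO and 5 WT libraries were compared, because the number 407 belongs to a sample of each genotype and its columns could not be told apart.

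Glucose enters T cells through facilitative carriers and is split in the cytosol to pyruvate, which lactate dehydrogenase can turn into lactate. Activated T cells are known to raise glucose uptake and glycolytic enzymes through Myc and the hypoxia-inducible factor Hif1a. Resting regulatory T cells are known to rely more on mitochondrial oxidation, and Foxp3 has been described to restrain Myc and glycolysis.

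Reads on genes ranged from 21427618 to 21836578 in the CNS2KO libraries and from 16557424 to 19154642 in the WT libraries. The 8 defining markers of the cell type, Foxp3 and Il2ra among them, were read in every library and summed to 6299 and 6468 CPM (reads of a gene scaled to a common library total with trimmed mean of M-values factors) in CNS2KO 399 and 408, against 6021 to 6725 CPM in WT. Foxp3 itself stood at 464 and 441 CPM in CNS2KO 399 and 408, against 410 to 607 CPM in WT. The deleted element is not in the transcript, so these levels are no test of the labels. Libraries differed in how their levels changed with transcript length. Across 8235 genes above a mean of 10 CPM, Spearman's rho between transcript length and the deviation from the WT mean was -0.40 in CNS2KO 399 and 0.10 in CNS2KO 408, and in WT it ranged from -0.44 in WT 1037 to 0.41 in WT 398. These rho are across genes, which are not independent replicates.

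Ldha, Eno1 and Aldoa were the most abundant members in both genotypes, and Slc2a1 and Hk2 the least. Levels between genes are given as CPM per kilobase of 1 reference transcript per gene. In this unit Ldha, the muscle-type subunit of lactate dehydrogenase, stood at 665 ± 148 in CNS2KO (SD, n = 2) and 540 ± 46.5 in WT (SD, n = 5), the highest member in both. Eno1, the main enolase, stood at 336 ± 104 in CNS2KO and 312 ± 23.2 in WT, and the aldolase Aldoa at 255 ± 62.8 in CNS2KO and 269 ± 31.8 in WT. In WT, Eno1 and Aldoa overlapped each other and lay below every value of Ldha. Gpi1, which turns glucose 6-phosphate into fructose 6-phosphate, followed at 116 ± 23.0 CPM per kilobase in CNS2KO and 120 ± 21.1 in WT. The transporter Slc2a3 (62.4 ± 4.25 in CNS2KO, 61.9 ± 14.1 in WT) and the phosphoglycerate kinase Pgk1 (49.0 ± 1.5 in CNS2KO, 45.8 ± 5.41 in WT) formed the next overlapping pair. Then came the triose phosphate isomerase Tpi1 and the hexokinase Hk1, which also overlapped in WT.

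Slc2a1 and Hk2, the transporter and the hexokinase known to be induced when T cells are activated, were the lowest members in both genotypes. Slc2a1 stood at 8.87 ± 4.0 CPM per kilobase in CNS2KO and 15.6 ± 2.81 in WT, and Hk2 at 0.59 ± 0.24 in CNS2KO and 0.98 ± 0.16 in WT. Slc2a1 thus made up 12.5% ± 5.65 of the length-scaled sum of both transporters in CNS2KO and 20.4% ± 2.25 in WT. Hk2 made up 2.08% ± 0.48 of the sum of Hk1 and Hk2 in CNS2KO and 3.20% ± 0.81 in WT. The transcript lengths come from GENCODE M21 on GRCm38 and not from the annotation behind the counts, so levels between genes are approximate.

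**Figure D1:**
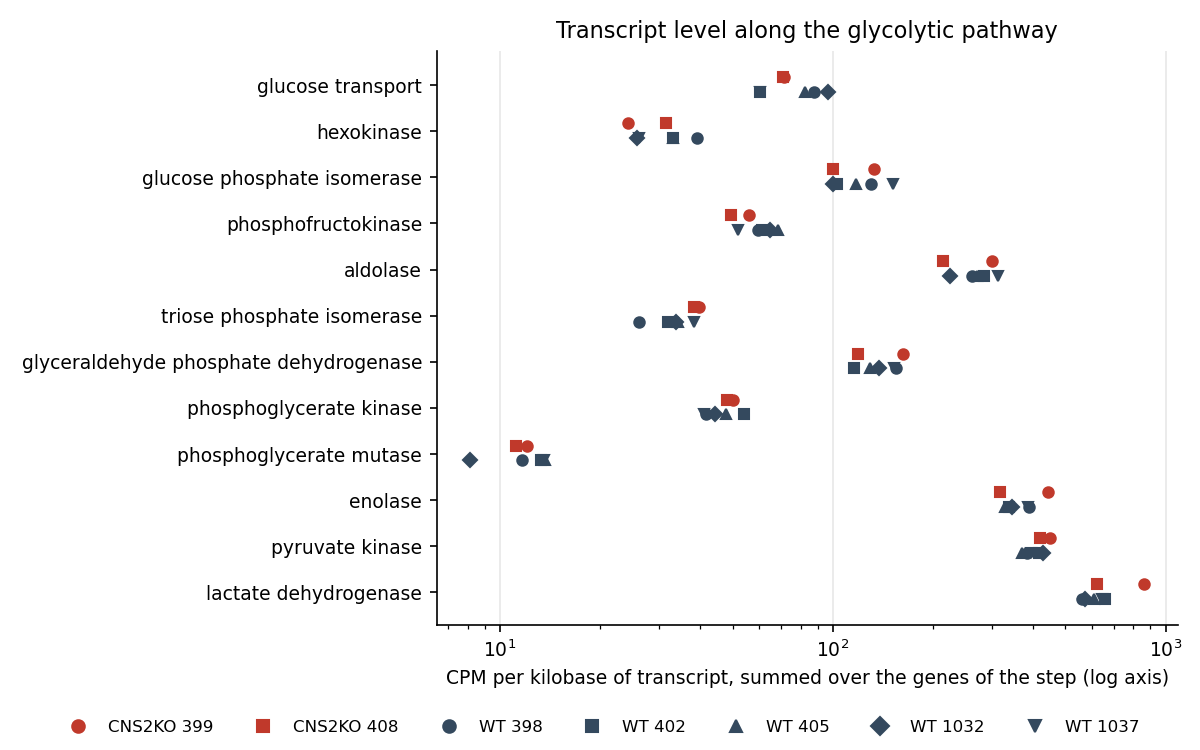
Transcript level at 12 steps from glucose transport to lactate, as CPM per kilobase of transcript (log axis) summed over genes of each step. Glucose transport holds Slc2a1 and Slc2a3 only, and hexokinase Hk1 and Hk2 only. Each point is 1 library, CNS2KO above WT. Lactate dehydrogenase, pyruvate kinase and enolase lie at the high end and phosphoglycerate mutase at the low end in all 7 libraries.

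Several of these genes share stretches of sequence with other annotated genes. Reads that fit more than 1 place were set apart by the authors' counter and made up 17.5 to 18.7% of reads in CNS2KO and 14.7 to 19.7% in WT. Of the 50-base stretches of the reference transcript, 72.2% in Eno1 and 68.0% in Pgk1 also occurred in transcripts of another annotated gene. The share was 25.3% in Gpi1, 17.1% in Ldha, 13.9% in Aldoa and 7.51% in Tpi1, against 1.74% in Slc2a1 and 0% in Slc2a3, Hk1 and Hk2. Among the other enzymes it was highest in Gapdh, at 82.5%, followed by 41.5% in the phosphoglycerate mutase Pgam1 and 34.4% in the pyruvate kinase Pkm2. Levels of genes with a large shared part are uncertain, and their rank along the pathway with them. The shared stretches of Gpi1 fell in 122 other genes, against 9 for Eno1 and 5 for Pgk1. Copies of a gene and repeats were not told apart.

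The comparison the design states is CNS2KO with WT at rest. None of the 10 members passed. At an adjusted p under 0.05 the quasi-likelihood test of edgeR gave 0 of 14424 genes, 0% of those tested, and every member had an adjusted p of 1.0. At an unadjusted p under 0.05 it gave 361 genes, 2.5% of those tested, of which those lower in CNS2KO made up 0.964% of all genes and those higher 1.54%. Of the members 1 of 10, Slc2a1, stood there, on the lower side, and 0 of 10 on the higher side. DESeq2, limma-voom and a limma fit to the deposited log2 values also gave 0 genes when adjusted, with 496, 614 and 563 at an unadjusted p under 0.05. Of the members, 5 had positive and 5 negative log2 fold changes, and their median was -0.02, beside -0.03 over all genes tested. A sum over the members came to 3553 CPM in CNS2KO 399 and 2673 CPM in CNS2KO 408, against 2716 to 3042 CPM in the WT libraries. The WT libraries thus lay between the 2 CNS2KO libraries in this sum.

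**Figure D2:**
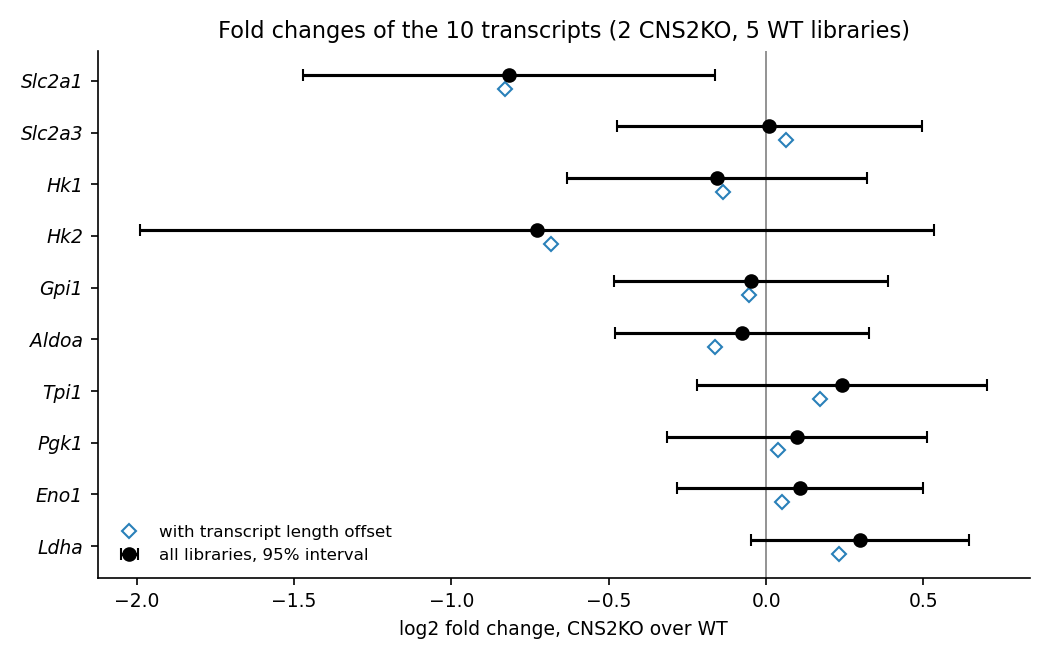
Log2 fold change of CNS2KO over WT for each member (black points, bars are 95% intervals of edgeR's quasi-likelihood fit over 2 CNS2KO and 5 WT libraries), with the value after an offset for transcript length (open diamonds). Only the interval of Slc2a1, from -1.47 to -0.16, lies on 1 side of 0 in the fit without the offset, and it does not pass when adjusted over all genes.

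The largest difference among the members was in Slc2a1, the glucose carrier GLUT1. It stood at 19.7 CPM in CNS2KO 399 and 38.1 CPM in CNS2KO 408, against 47.3, 43.1, 57.7, 63.4 and 43.3 CPM in WT 398, 402, 405, 1032 and 1037. The genotypes did not overlap, with CNS2KO 399 far below WT and CNS2KO 408 close to WT 402 and WT 1037. Such a gap on the lower side was found in 3% of all genes tested, and among the members in 1 of 10. The means were 28.9 ± 13.0 CPM in CNS2KO (SD, n = 2) and 51.0 ± 9.16 CPM in WT (SD, n = 5), a log2 fold change of -0.82 (SE 0.30, 95% interval -1.47 to -0.16, unadjusted p = 0.019 and adjusted p = 1.0 by edgeR's quasi-likelihood test). By unadjusted p it ranked 91 of 14424 genes. These values rested on 417 to 1175 reads per library. Fewer cells with the transcript and less of it per cell cannot be told apart in such bulk samples.

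Without CNS2KO 399 the log2 fold change of Slc2a1 was -0.41, and without CNS2KO 408 it was -1.38. In these fits 1 CNS2KO library remained and was assumed to vary like the WT libraries. With an offset for transcript length, added after the trend with length was seen, it was -0.83 (SE 0.27). Genes of 3 to 4 kilobases, the class of Slc2a1, had a median deviation from the WT mean of -0.04 in CNS2KO 399 and 0.06 in CNS2KO 408 on the log2 scale, against -1.33 and -0.40 for Slc2a1.

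Slc2a3, which encodes the high-affinity carrier GLUT3, was the more abundant transporter in every library. It stood at 259 and 235 CPM in CNS2KO 399 and 408, against 289, 187, 256, 306 and 187 CPM in WT 398, 402, 405, 1032 and 1037. The CNS2KO values were within the range of WT, with a log2 fold change of 0.01 (SE 0.22, 95% interval -0.47 to 0.49).

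The ratio of Slc2a1 to Slc2a3 within a library is nearly free of how libraries are scaled. It was 0.0779 in CNS2KO 399 and 0.164 in CNS2KO 408, against 0.165, 0.232, 0.227, 0.208 and 0.233 in WT 398, 402, 405, 1032 and 1037. CNS2KO 408 and WT 398 were nearly equal, and CNS2KO 399 stood far below the rest. The difference of mean log2 ratios was -0.90 (two-sided exact permutation p = 0.048, the smallest that 21 assignments allow, and exact permutation p = 0.14 adjusted over 3 ratios). Without CNS2KO 399 the difference was -0.37, and without CNS2KO 408 it was -1.44.

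Hexokinases trap glucose in the cell by phosphorylation. Hk1, the form found in most tissues, stood at 91.6 and 119 CPM in CNS2KO 399 and 408, against 146.5, 124, 123, 94.9 and 97.9 CPM in WT 398, 402, 405, 1032 and 1037. CNS2KO 399 was the lowest library and CNS2KO 408 lay inside the WT range, with a log2 fold change of -0.16 (SE 0.22). Hk2, the inducible form, had 49 to 121 reads per library. It stood at 2.32 and 4.21 CPM in CNS2KO 399 and 408, against 5.40, 5.22, 5.80, 6.53 and 4.09 CPM in WT 398, 402, 405, 1032 and 1037. CNS2KO 408 lay between WT 1037 and the other WT libraries, so the genotypes overlapped. The log2 fold change of Hk2 was -0.73, with a 95% interval from -1.99 to 0.53, and it was -0.36 without CNS2KO 399 and -1.23 without CNS2KO 408. The log2 ratio of Hk2 to Hk1 was -5.03 and -4.66 in CNS2KO 399 and 408, both below every WT library, of which WT 398 was lowest at -4.64. The means were -4.85 ± 0.26 in CNS2KO and -4.31 ± 0.33 in WT, a difference of -0.54 (two-sided exact permutation p = 0.095, and 0.14 adjusted over 3 ratios). Without CNS2KO 399 this difference was -0.35, and without CNS2KO 408 it was -0.72.

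**Figure D3:**
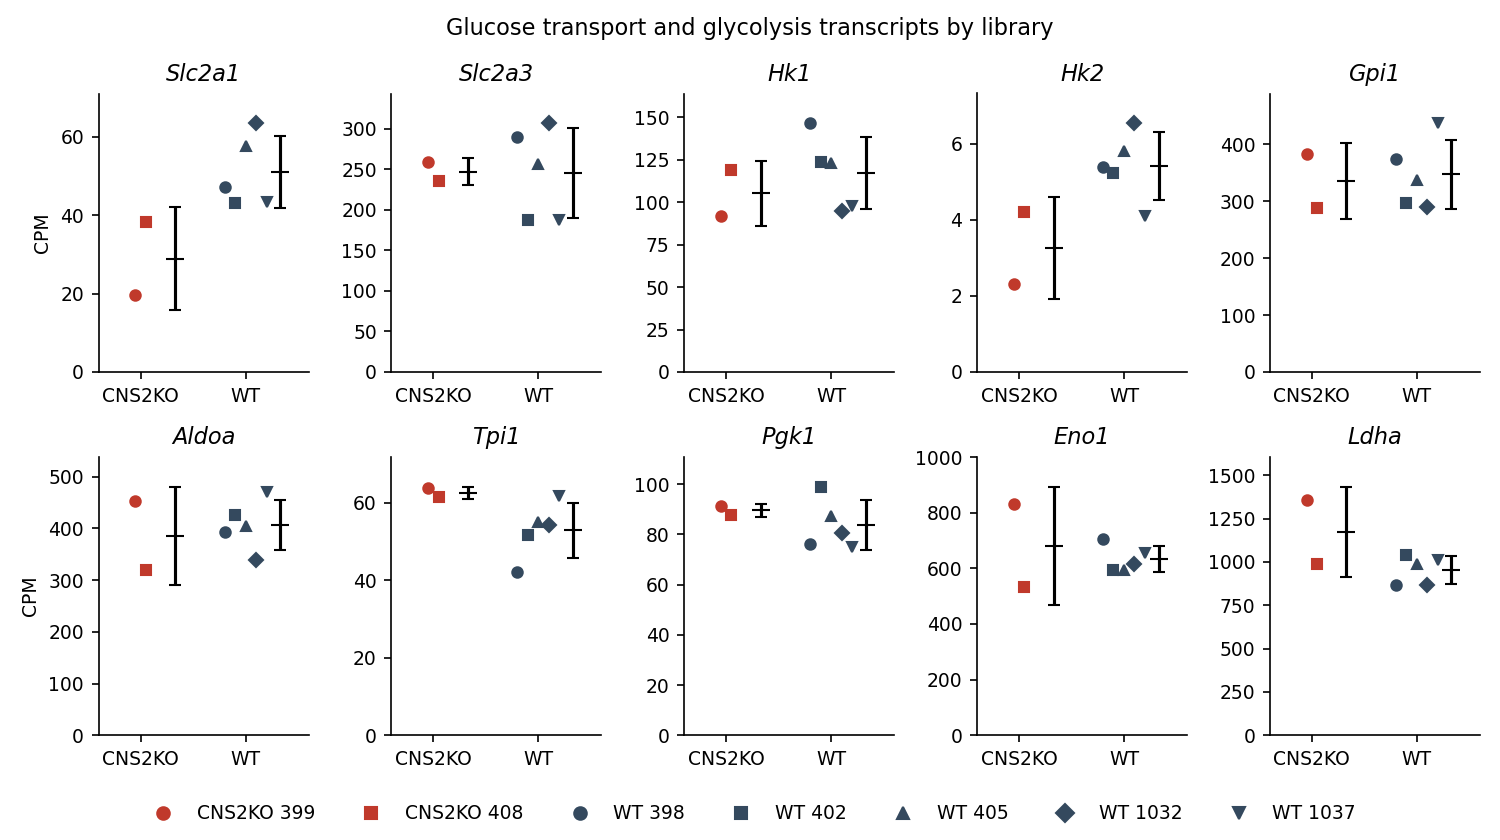
CPM of the 10 members in each library (points, CNS2KO left of WT, linear axes from 0), with the mean and SD of each genotype (black bars; n = 2 and n = 5). The CNS2KO points lie below all WT points in Slc2a1 alone, and in Eno1 the 2 CNS2KO points, 831 and 532 CPM, lie on either side of all WT points.

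The 6 enzymes from Gpi1 to Ldha had log2 fold changes from -0.08 to 0.30. Ldha stood at 1358 and 989 CPM in CNS2KO 399 and 408, against 868, 1039, 986, 866 and 1012 CPM in WT 398, 402, 405, 1032 and 1037. CNS2KO 399 was above every WT library and CNS2KO 408 inside the WT range, with a log2 fold change of 0.30 (SE 0.16, 95% interval -0.05 to 0.64, unadjusted p = 0.084 by edgeR's quasi-likelihood test). Without CNS2KO 399 the log2 fold change of Ldha was 0.06, and without CNS2KO 408 it was 0.50. Relative to Ldhb, the heart-type subunit, Ldha had a log2 ratio of 3.55 ± 0.10 in CNS2KO and 3.42 ± 0.32 in WT (difference 0.14, two-sided exact permutation p = 0.62, and 0.62 adjusted over 3 ratios). This difference was 0.033 without WT 1032, 0.067 without CNS2KO 408, 0.21 without CNS2KO 399 and 0.25 without WT 405.

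**Figure D4:**
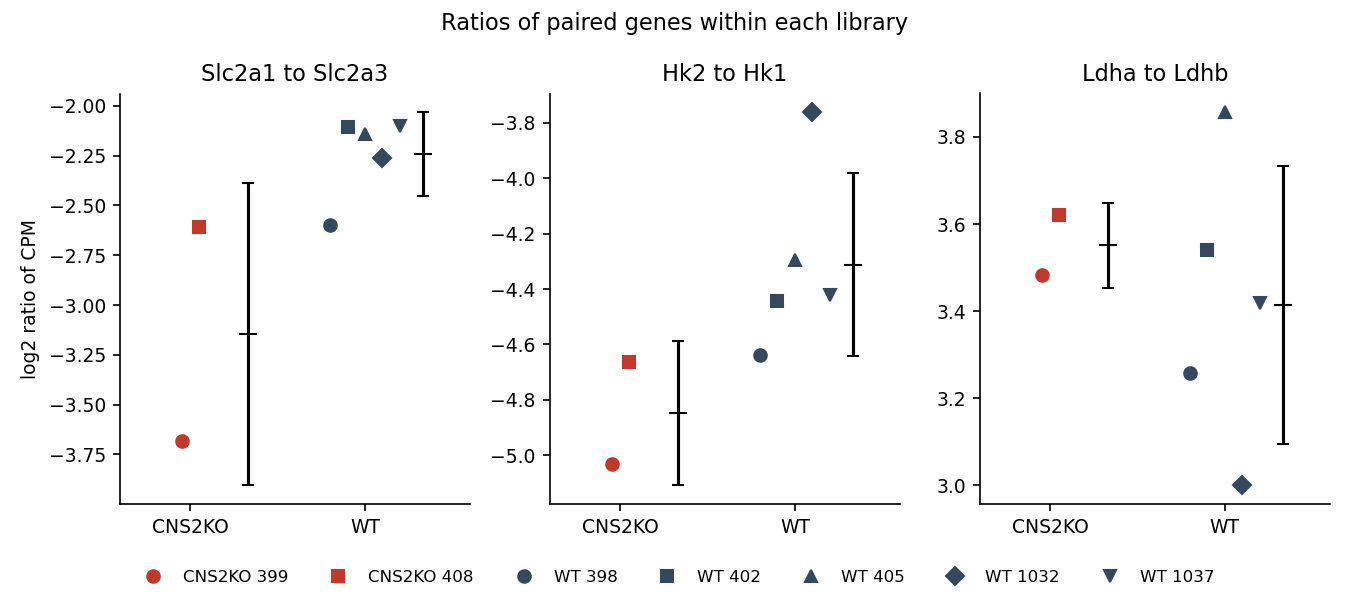
Log2 ratio of CPM between paired genes in each library (points, CNS2KO left of WT) with the mean and SD of each genotype (black bars; n = 2 and n = 5). In the panel of Slc2a1 to Slc2a3 the 2 CNS2KO points, -3.68 and -2.61, lie below all WT points, the upper of them by 0.01. In the panel of Hk2 to Hk1 the 2 CNS2KO points, -5.03 and -4.66, also lie below all WT points, the lowest of which is -4.64. In the panel of Ldha to Ldhb the genotypes overlap.

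Eno1 and Aldoa set the CNS2KO libraries apart from each other more than from WT. Eno1 stood at 831 CPM in CNS2KO 399 and 532 CPM in CNS2KO 408, against 704, 593, 594, 616 and 654 CPM in WT 398, 402, 405, 1032 and 1037. These are the highest and the lowest of the 7 libraries, and the log2 fold change was 0.11 (SE 0.18) with both, -0.25 without CNS2KO 399 and 0.39 without CNS2KO 408. For Aldoa the values were 453 and 319 CPM in CNS2KO 399 and 408, against 393, 427, 405, 339 and 470 CPM in WT 398, 402, 405, 1032 and 1037. CNS2KO 408 was the lowest library and CNS2KO 399 lay inside the WT range, with a log2 fold change of -0.08 (SE 0.18), -0.35 without CNS2KO 399 and 0.15 without CNS2KO 408. Gpi1 stood at 382.8 and 288.9 CPM in CNS2KO 399 and 408, against 374.7, 296.3, 337.6, 289.4 and 436.9 CPM in WT 398, 402, 405, 1032 and 1037. CNS2KO 408 was the lowest library, just under WT 1032, and the log2 fold change was -0.05 (SE 0.20), 0.14 without CNS2KO 408 and -0.26 without CNS2KO 399.

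Tpi1, which interconverts the triose phosphates, and Pgk1 differed little between the CNS2KO libraries. Tpi1 stood at 63.68 and 61.45 CPM in CNS2KO 399 and 408, against 42.02, 51.56, 54.97, 54.31 and 61.63 CPM in WT 398, 402, 405, 1032 and 1037. CNS2KO 408 lay just under WT 1037, so the genotypes overlapped, and the log2 fold change of Tpi1 came to 0.24 (SE 0.21, 95% interval -0.22 to 0.70). Pgk1, which makes the first ATP of the pathway and is X-linked, stood at 91.4 and 87.6 CPM in CNS2KO 399 and 408, inside the WT range of 75.0 to 99.0 CPM, with a log2 fold change of 0.10 (SE 0.19).

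Levels in CNS2KO 399 moved with transcript length (rho -0.40), as did those in some WT libraries (rho -0.44 in WT 1037 and 0.41 in WT 398). The part of length in the members' values was tested only by the length offset. CNS2KO 399 was the highest library in 3 members, Tpi1, Eno1 and Ldha, whose reference transcripts measure 1607 to 2027 bases. It was the lowest in 3 others, Slc2a1, Hk1 and Hk2, with 3260 to 5513 bases. Slc2a3, with 3959 bases, did not follow, at 0.11 above its WT mean on the log2 scale. Over all genes above a mean of 10 CPM, the median deviation of CNS2KO 399 from the WT mean was 0.18 for transcripts of 1 to 2 kilobases and -0.21 for those over 4 kilobases, on the log2 scale. In CNS2KO 408 the same medians were -0.0038 and 0.079. With the offset for transcript length the log2 fold changes were 0.23 (SE 0.13) for Ldha, 0.05 for Eno1, 0.17 for Tpi1, -0.14 for Hk1 and -0.68 for Hk2, each with an adjusted p of 1.0 by edgeR's quasi-likelihood test.

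**Figure D5:**
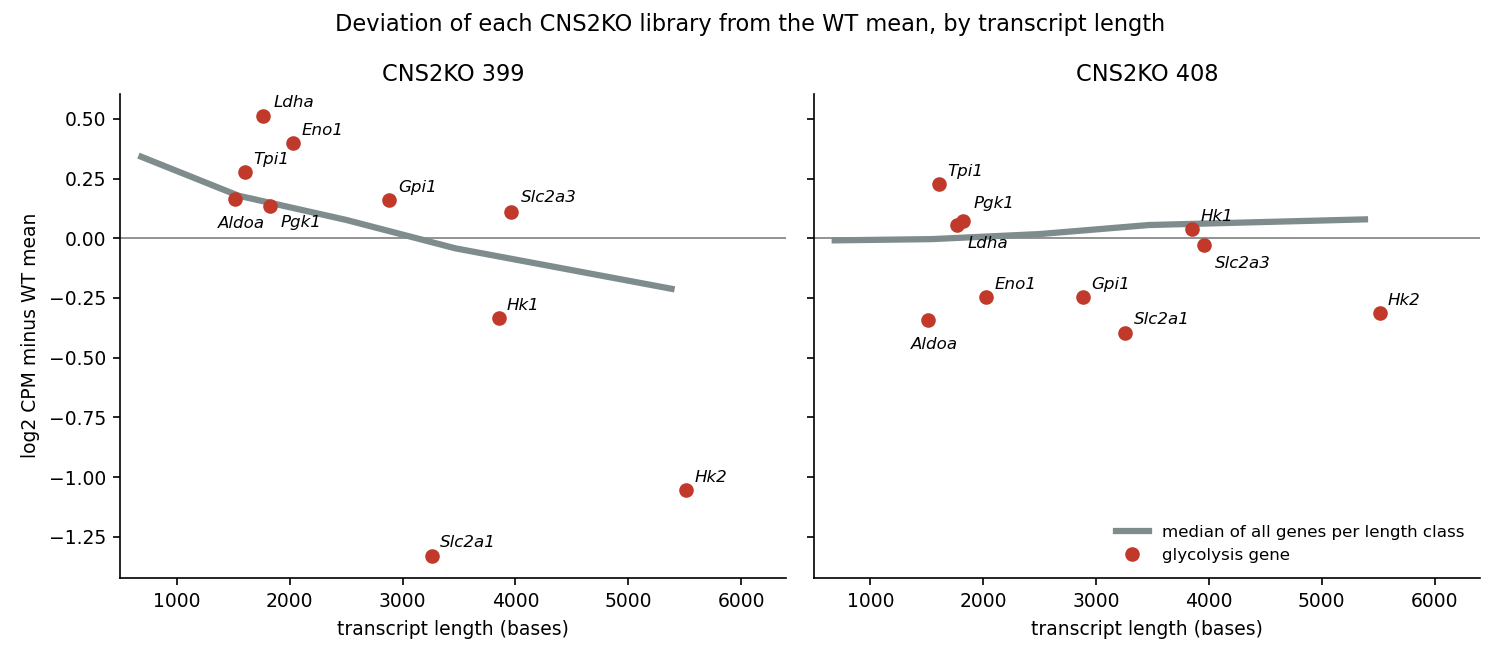
Deviation of each member from its WT mean in log2 CPM, against the length of its reference transcript in bases, for CNS2KO 399 and CNS2KO 408; the grey line joins the medians of all genes in 5 length classes, drawn at the median length of each class. In CNS2KO 399 the grey line falls with length, and Slc2a1, at -1.33, and Hk2, at -1.06, lie below it.

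Among the WT libraries Eno1 and Ldha varied least of the members. The coefficient of variation over the 5 WT libraries was 7.43% for Eno1, 8.60% for Ldha, 11.8% for Pgk1 and 11.8% for Aldoa. It was 13.4% for Tpi1 and 16.5% to 22.8% for Hk2, Gpi1, Slc2a1, Hk1 and Slc2a3. For the 9 members above a mean of 30 CPM the median SD of log2 CPM in WT was 0.20, beside 0.25 over 5551 such genes. These genes were not matched to the members in level, and Ldha and Eno1 averaged 954 and 632 CPM in WT. Whether the members vary less than genes of like level was not tested. WT 1032 was the highest library in both transporters and in Hk2, and its rho between transcript length and the deviation from the WT mean was 0.34.

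Promoter sequence is shown for Slc2a1 and Hk2, the members with the lowest fold changes, and for Ldha, the one with the highest, because all 3 are known targets of hypoxia-inducible factor and Myc. The 250 bases before the RefSeq start were read 5′ to 3′ on GRCm38.p6, and capitals mark ACGTG on either strand, the core shared by hypoxia response elements and the Myc motif CACGTG. The windows are chr4:119108495-119108744 (plus strand) for Slc2a1, chr6:82774455-82774704 (minus strand) for Hk2 and chr7:46845554-46845803 (plus strand) for the first of 2 starts of Ldha.
Slc2a1: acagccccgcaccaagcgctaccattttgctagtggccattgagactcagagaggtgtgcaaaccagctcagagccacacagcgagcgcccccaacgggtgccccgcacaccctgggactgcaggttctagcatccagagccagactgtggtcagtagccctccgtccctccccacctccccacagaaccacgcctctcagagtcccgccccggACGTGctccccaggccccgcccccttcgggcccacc
Hk2: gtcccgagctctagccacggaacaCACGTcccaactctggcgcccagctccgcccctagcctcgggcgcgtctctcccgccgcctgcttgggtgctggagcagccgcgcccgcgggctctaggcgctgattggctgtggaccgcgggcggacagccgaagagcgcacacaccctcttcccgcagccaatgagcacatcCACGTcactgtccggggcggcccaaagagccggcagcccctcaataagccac
Ldha: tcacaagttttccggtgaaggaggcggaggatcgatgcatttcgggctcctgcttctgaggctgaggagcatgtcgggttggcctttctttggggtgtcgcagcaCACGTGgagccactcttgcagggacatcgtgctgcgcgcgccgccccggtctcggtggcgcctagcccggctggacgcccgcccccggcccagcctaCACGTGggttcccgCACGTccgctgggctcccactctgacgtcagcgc
The Slc2a1 window held 1 match, 36 bases before the start, and the Hk2 window held 2, at 52 and 226 bases. The Ldha window held CACGTG, which counts on both strands, at 2 places, with a further ACGTG nearer the start. Of the 9 members with a window in the table, 5 held ACGTG in at least 1 window (Slc2a1, Hk2, Aldoa, Pgk1 and Ldha), beside 18.5% of all 27025 genes, and 1 held CACGTG, beside 6.86%. Some genes have several windows, which can overlap. By window, 6 of 15 held ACGTG, beside 16.6% of all 32851, and 1 of 15 held CACGTG, beside 6.02%. The genes and windows set beside the members were not limited to expressed genes. These matches are letters in a window and were not tied to any binding data here.

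Factors that act on such motifs did not pass the test. Myc stood at 210 ± 11.2 CPM in CNS2KO (SD, n = 2) and 205 ± 32.2 CPM in WT (SD, n = 5), a log2 fold change of 0.03 (SE 0.19). Hif1a stood at 106 and 183 CPM in CNS2KO 399 and 408, against 106 to 179 CPM in WT, so that CNS2KO 408 was above every WT library. The log2 fold change was 0.04 (SE 0.26) for Hif1a and -0.12 (SE 0.24) for its partner Arnt. Of the 14 listed regulators, 12 were tested, 6 with positive and 6 with negative fold changes, and 0 passed in either direction (median -0.01).

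The remaining enzymes of glycolysis were also without a call. Of 20 listed, 13 were tested, 7 positive and 6 negative, and 0 passed in either direction (median 0.00). Pkm2, the row of the main pyruvate kinase gene outside liver and red cells, stood at 1055 ± 50.4 CPM in CNS2KO and 968 ± 57.4 CPM in WT (log2 fold change 0.12). The log2 fold change was 0.03 for the dehydrogenase Gapdh and -0.22 for the phosphofructokinase Pfkp. Bpgm, the bisphosphoglycerate mutase best known from red blood cells, is named because of its unadjusted p. It stood at 58.2 and 37.4 CPM in CNS2KO 399 and 408, against 25.05 to 40.2 CPM in WT (log2 fold change 0.58, SE 0.27). The 5 tested of 8 erythroid markers summed to 151 CPM in CNS2KO 399 and 30.7 CPM in CNS2KO 408, against 6.32 to 27.6 CPM in WT, and their part in the value of Bpgm was not tested.

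Of the other 10 hexose transporters, 4 were tested, 3 positive and 1 negative, and 0 passed in either direction. Together these 4 summed to 20.5 and 17.9 CPM in CNS2KO 399 and 408, against 16.4 to 31.9 CPM in WT. Slc2a9, a urate carrier, averaged 6.67 CPM in CNS2KO and 14.4 CPM in WT (log2 fold change -1.11, SE 0.56), and Slc2a12 averaged 9.27 CPM in CNS2KO and 6.95 CPM in WT (log2 fold change 0.41, SE 0.44). In lactate transport, 4 of 6 listed genes were tested and 0 passed in either direction. The lactate carrier Slc16a1 stood at 20.8 and 22.35 CPM in CNS2KO 399 and 408, against 16.6, 13.5, 13.7, 13.3 and 12.05 CPM in WT 398, 402, 405, 1032 and 1037. Both CNS2KO libraries lay above every WT library, as in 3.76% of all genes tested, with a log2 fold change of 0.64 (SE 0.28, adjusted p = 1.0 by edgeR's quasi-likelihood test). The log2 fold changes of its chaperones were -0.04 for Bsg and -0.06 for Emb.

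Genes that switch the flux of glucose carbon had 4 positive and 7 negative fold changes among 11 tested of 14, and 0 passed in either direction (median -0.11). Txnip, an inhibitor of glucose uptake, stood at 677 ± 73.4 CPM in CNS2KO and 776 ± 130 CPM in WT (log2 fold change -0.20). Pdk1, a kinase that shuts off pyruvate dehydrogenase, stood at 45.1 and 118 CPM in CNS2KO 399 and 408, against 45.5 to 98.8 CPM in WT. Pdk3, a related kinase named for its unadjusted p, stood at 3.26 and 21.4 CPM in CNS2KO 399 and 408, against 25.2 to 39.8 CPM in WT, below every WT library in both (log2 fold change -1.41, SE 0.55, adjusted p = 1.0 by edgeR's quasi-likelihood test). The row 9630033F20Rik, which RefSeq lists as a synonym of Tigar, a brake on glycolysis, is named for the same reason and stood at 20.5 and 11.7 CPM in CNS2KO 399 and 408, against 5.24 to 11.6 CPM in WT (log2 fold change 1.09, SE 0.41). These genes and Bpgm were chosen once their values had been seen.

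Genes of effector regulatory T cells, in which glucose use is known to be higher, were set beside the members. Of 20 listed, 19 were tested, 3 positive and 16 negative, and 0 passed in either direction (median log2 fold change -0.36). The mean deviation of the 19 from WT was -0.66 in CNS2KO 399 and -0.22 in CNS2KO 408, against -0.46 (WT 402) to 0.46 (WT 1037) on the log2 scale. This mean counts genes with few reads as much as abundant ones. Among them, Havcr2 stood at 0 and 1.10 CPM in CNS2KO 399 and 408, against 0 to 13.0 CPM in WT. Il10 stood at 0 and 0.86 CPM in CNS2KO 399 and 408, against 0.56 to 6.32 CPM in WT. Of the 19, Havcr2 and Il10 had the lowest log2 fold changes, -3.01 and -2.61. The most abundant, Tnfrsf4 and Icos, had 0.16 and -0.26. S100a6 stood at 23.9 and 32.8 CPM in CNS2KO 399 and 408, against 40.2 to 80.5 CPM in WT. Ccr8 stood at 9.41 and 21.7 CPM in CNS2KO 399 and 408, against 20.5 to 43.9 CPM in WT. Their unadjusted p was 0.016 and 0.039 by edgeR's quasi-likelihood test, and neither passed when adjusted. The summed level of the list was 1716 and 1713 CPM in CNS2KO 399 and 408, against 1687 to 2214 CPM in WT. CNS2KO 399 was lowest in the mean deviation as in Slc2a1, and the part of the list in the value of Slc2a1 was not tested. Cell cycle genes had mean deviations of -0.19 in CNS2KO 399 and 0.31 in CNS2KO 408, inside the WT range of -0.60 to 0.34. Of other cell types, B cell markers summed to 83.7 and 42.8 CPM in CNS2KO 399 and 408, against 47.8 to 60.1 CPM in WT, myeloid markers to 24.5 and 24.8 CPM against 6.98 to 26.5 CPM in WT, and CD8 and NK markers to 54.3 and 48.3 CPM against 43.8 to 59.2 CPM in WT. The mean deviation of the 4 tested myeloid markers was 0.063 in CNS2KO 399 and 0.75 in CNS2KO 408, against -1.15 to 0.67 in WT. Of these 4, 2 had positive and 2 negative log2 fold changes. Lyz2 stood at 16.7 and 10.1 CPM in CNS2KO 399 and 408, against 0.18 to 9.27 CPM in WT. Csf1r stood at 6.43 and 8.57 CPM in CNS2KO 399 and 408, against 3.95 to 13.1 CPM in WT. The mean deviation of the 5 tested CD8 and NK markers was 0.39 in CNS2KO 399 and 0.56 in CNS2KO 408. This was above the WT range of -0.17 to 0.10 on the log2 scale. The mean counts markers with few reads, Gzma among them, as much as abundant ones. Of the 5, 3 had positive and 2 negative log2 fold changes. Gzma, a granzyme of cytotoxic cells, stood at 6.29 and 2.39 CPM in CNS2KO 399 and 408, against 0 to 1.03 CPM in WT. Its unadjusted p was 0.026 and its adjusted p 1.0 by edgeR's quasi-likelihood test. Cd8b1, the most abundant of the 5, stood at 20.8 and 24.2 CPM in CNS2KO 399 and 408, against 22.4 to 39.3 CPM in WT. The log2 fold change was -0.54 for Cd8b1 and -0.34 for Cd8a. Erythroid markers had the largest deviations of these lists in CNS2KO 399, at a mean of 2.91, against 0.93 in CNS2KO 408 and -1.0 to 0.76 in WT, and 3 of the 5 tested had an unadjusted p under 0.05. CNS2KO 399 is also the library in which Slc2a1, Hk1 and Hk2 were lowest and Tpi1, Eno1 and Ldha highest. Of the defining genes of these cell types, Ncr1 had 0 reads in every library, and Pax5, Cd14, S100a8 and S100a9 did not pass the filter on low counts. The part of these cell types in the members' values was not tested.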

How the data were processed

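Total RNA of sorted Treg cells underwent SMARTer amplification before Proton libraries were made, per the labels' protocols. The authors deposited raw counts per gene symbol and a table of log2 values. STAR, BWA, edgeR and the build mm9 are named in the submitters' processing notes, with no versions. The counter, the annotation and any use of strand are not given in the sources used here. A deposited table of 1 signed value per gene names no groups and was not used. Of the deposited columns, 2 per file carry the number 407, hold the same counts in every row and were not used. The 5 summary rows of the counter were kept out of library sizes, and reads on genes made up 22.0 to 23.7% of each library. Every pair of used libraries differed beyond sampling noise (chi-square of at least 31.6 per degree of freedom). Whether libraries came from separate animals is not stated, and p-values then measure only the spread between libraries, which may be technical.

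The analysis of counts used edgeR 4.0.16 in R 4.3.3 (filterByExpr, TMM scaling, two-sided quasi-likelihood test, Benjamini-Hochberg over all genes tested, FDR of 0.05), and the code was tested on simulated data. Each standard error is the log2 fold change divided by the square root of its F statistic. A floor of 3 counts equals 0.142 to 0.182 CPM and covers counting error only. Ratios used log2(CPM + 0.5). Lengths and shared 50-base stretches came from GENCODE M21 and promoters from RefSeq. Lengths were found for 97.2% of tested genes. As alternatives, libraries were scaled by upper quartile or by relative log expression. Others were DESeq2 1.42.0, limma-voom (limma 3.58.1), limma on the authors' log2 values, other filters, an FDR of 0.1, other pseudocounts, 3-digit WT numbers only, a term for WT 1032 and 1037, each library left out, and a length offset. The members and lists were chosen with earlier results of these data known. The text names all members, and of each list up to the 4 most highly expressed genes. Exceptions are Foxp3 as the targeted gene and those said to be chosen once their values were seen. Gzma, Havcr2, Il10, S100a6, Ccr8, Ncr1, Pax5, Cd14, S100a8, S100a9 and Pgam1 were also chosen once their values were seen.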

Additional observations from a re-analysis of the deposited data

Results flagged for a closer look

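In 45 sets of 5 WT values checked, 3 had 1 library far from the rest, where chance gives about 1 in 20, and none of them was a member. Dld, a subunit of pyruvate dehydrogenase, stood at 250 CPM in WT 402, against 168 CPM in the next library. Pgd, an enzyme of the pentose phosphate pathway, stood at 121 CPM in WT 405, against 92.6 CPM in the next. Higd1a, a hypoxia-induced gene, stood at 63.2 CPM in WT 1037, against 34.1 CPM in the next.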

How the results depend on the processing

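The count of members called stayed at 0 under all alternatives run, and that of all genes at 0, with the exception of 8 genes when low counts were not filtered out. Each member kept its sign under the 10 alternatives other than leaving out single libraries (9 for Hk2), and Slc2a1 ranged from -0.88 to -0.77 there. With 3-digit WT numbers only, Hk1 went from -0.16 to -0.32 and Tpi1 from 0.24 to 0.34. The log2 ratio of Ldha to Ldhb turned to -0.00071 with 3-digit WT numbers only. The median of the members, -0.02, was 0.0083 there, 0.012 with the filter at 10 CPM, 0.0076 with a term for WT 1032 and 1037 and 0.0001 with limma on the authors' log2 values. The difference in the log2 ratio of Hk2 to Hk1 had an exact permutation p of 0.24 with a pseudocount of 1 CPM. The cause of these changes was not tested. With each library left out in turn, log2 fold changes ranged from -0.35 to 0.15 for Aldoa, -0.25 to 0.39 for Eno1, -0.26 to 0.14 for Gpi1, -0.36 to 0.023 for Hk1 and -0.072 to 0.10 for Slc2a3, and the median of the members from -0.15 (without CNS2KO 399) to 0.13 (without CNS2KO 408). All of these took both signs. Slc2a1 ranged from -1.38 to -0.41, Hk2 from -1.23 to -0.36, Ldha from 0.06 to 0.50, Tpi1 from 0.17 to 0.30 and Pgk1 from 0.06 to 0.17. Fits without CNS2KO 399 or CNS2KO 408 rest on 1 CNS2KO library, so no unadjusted p is given for them. Relative log expression shifted the all-gene median by -0.0072. Hk2 did not pass the filter at 10 CPM. No paired analysis was possible because the genotypes share only the number 407, whose columns could not be told apart.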

Other observations

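Branches next to glycolysis were read in all libraries. All 7 listed genes of pyruvate entry into mitochondria were tested, 6 positive and 1 negative, and 0 passed in either direction (median log2 fold change 0.14). Pdha1, a subunit of pyruvate dehydrogenase, stood at 526 ± 16.5 CPM in CNS2KO (SD, n = 2) and 468 ± 51.6 CPM in WT (SD, n = 5). The 7 genes of the pentose phosphate pathway had 5 positive and 2 negative fold changes, and 0 passed in either direction (median 0.03), with the transaldolase Taldo1 at 0.01 and the transketolase Tkt at -0.13. Of 14 targets of hypoxia-inducible factor outside glycolysis, 10 were tested, 4 positive and 6 negative, and 0 passed in either direction (median -0.04), with Bnip3l at 0.04 and P4ha1 at -0.08.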
